A study of Mus musculus with 12 samples.

Results

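The genes described here are 32 genes of the oligodendrocyte lineage and of myelin, the sheath that oligodendrocytes wrap around axons. They were chosen by name for their known roles, as a list of myelin proteins, enzymes, transcription factors and progenitor markers, and no level measured here enters the rule, although earlier results of these data were known when the list was made. They are 32 of the 55401 genes in the count tables, all 32 matched a symbol, and all 32 were among the 19378 genes with enough reads to be tested.

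RNA was sequenced from the cerebellum of 12 mice, 1 library per mouse, in 3 groups of 4. Wt-DMSO mice were wild type (libraries 413, 425, 426 and 431), and Het-DMSO mice carried 1 expanded allele of Atxn1 (genotype Atxn1 154Q/2Q, knocked in to model the disease spinocerebellar ataxia type 1; libraries 409, 411, 420 and 429). Het-Hit2 mice had the same genotype and received the compound Hit 2 at 25 mg/ml in dimethyl sulfoxide (DMSO; libraries 410, 421, 422 and 430), while both other groups received DMSO alone, so that every animal was exposed to the solvent. Injections into the abdominal cavity began at 18 weeks of age and ran daily for 5 days, with a second course of 5 days after a rest, and tissue was taken at 20 weeks. The expanded allele sits in the germline and is therefore present in all cell types, not in oligodendrocytes alone. Whole cerebellum was extracted, and in such bulk RNA fewer oligodendrocytes and less RNA per oligodendrocyte cannot be told apart.

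Oligodendrocytes arise from progenitors that carry the growth factor receptor Pdgfra and the proteoglycan Cspg4 (NG2), pass through a short premyelinating stage marked by Enpp6, and then switch on the genes of the sheath. Olig1, Olig2 and Sox10 specify and maintain the lineage, and Myrf drives the myelin programme in cells that leave the cell cycle. In the cerebellum these cells lie mostly in the white matter and around the deep nuclei, so the amount of white matter in a piece of tissue bears on how much of this RNA it yields.

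Promoter sequences of 4 of the 32 genes are shown, chosen because they hold the letters that SOX proteins and Myrf are known to bind. Whether these letters bear on the levels measured here was not tested. The RefSeq table of promoters (build GRCm38.p6) held 32 promoters of 24 of the 32 genes. Mbp, Myrf, Sox10, Olig1, Fa2h, Trf, Car2 and Bcas1 had no entry. The sequences run 5′ to 3′ on the strand of the gene, from at most 250 bases before the start, and end where an annotated exon begins. Capitals mark ACAAAG or ACAATG (SOX type), CTGGCAC or CTGGTAC (Myrf type), or the reverse complement of one of these. Mobp, a structural protein of compact myelin, is at chr9:120149492-120149706 (plus strand), and Cnp, an enzyme of the myelin cytoplasm, at chr11:100574689-100574903 (plus strand). Mag, an adhesion molecule that faces the axon, is at chr7:30914923-30915172 (minus strand), and Mog, a protein of the outermost myelin surface, at chr17:37023399-37023648 (minus strand).
Mobp: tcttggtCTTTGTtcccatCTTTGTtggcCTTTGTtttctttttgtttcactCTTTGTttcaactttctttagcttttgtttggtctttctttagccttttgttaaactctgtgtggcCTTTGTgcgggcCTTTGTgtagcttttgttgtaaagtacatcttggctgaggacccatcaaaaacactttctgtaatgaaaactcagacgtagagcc
Cnp: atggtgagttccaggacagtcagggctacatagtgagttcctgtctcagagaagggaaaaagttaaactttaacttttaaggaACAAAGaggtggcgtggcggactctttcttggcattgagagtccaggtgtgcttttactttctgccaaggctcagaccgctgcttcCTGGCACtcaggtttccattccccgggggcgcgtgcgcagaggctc
Mag: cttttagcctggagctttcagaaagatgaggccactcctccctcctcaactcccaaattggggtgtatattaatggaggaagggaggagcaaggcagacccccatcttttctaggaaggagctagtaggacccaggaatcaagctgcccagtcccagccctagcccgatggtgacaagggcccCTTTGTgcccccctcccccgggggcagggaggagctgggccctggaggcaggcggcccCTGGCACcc
Mog: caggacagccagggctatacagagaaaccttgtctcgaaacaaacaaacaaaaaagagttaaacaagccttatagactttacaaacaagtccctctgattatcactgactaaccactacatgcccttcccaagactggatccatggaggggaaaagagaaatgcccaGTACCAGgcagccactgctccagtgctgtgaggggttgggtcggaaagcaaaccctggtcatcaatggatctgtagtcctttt
The Mobp promoter held 6 matches of the SOX type and no other gene of the list had as many. Cnp and Mag held 1 match of each type, and Mog held 1 of the Myrf type. Searched on both strands over windows of the same length, the SOX-type letters occurred in at least 1 promoter of 11 of the 24 genes (45.8%), against 28.15% of all 27025 genes in the table. The Myrf-type letters occurred in 4 of the 24 genes (16.7%), Mog, Mag, Cnp and Hapln2, against 6.79% of all genes. CAGCTG, a form of the E-box that Olig proteins bind, occurred in 3 of the 24 (12.5%), against 14.7% of all. Shares are given by gene because promoters of 1 gene can overlap, as a pair of Mag windows do, which hold the same 2 matches. Genes with more promoters have more chances to hold a match. A match of letters is a description of the sequence and no evidence of binding.

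Libraries held 15855751 to 45265719 reads assigned to genes, and log2 levels of all tested genes correlated between libraries of 1 group with r of 0.976 to 0.989 (Wt-DMSO), 0.869 to 0.981 (Het-DMSO) and 0.955 to 0.991 (Het-Hit2). Levels are given as CPM (read counts brought to a common library size, with TMM factors). Library 411 stood apart from its tissue label: summed CPM of 12 granule cell genes was 162 there and 4520 to 9881 in the other 11 libraries, and that of 12 Purkinje cell genes was 694 against 3329 to 7566. Gabra6, a receptor subunit that defines cerebellar granule cells, was at 0.606 CPM in library 411 and at 227 to 388 CPM elsewhere. Library 409 stood apart in another way, with 0.0795% of gene reads from mitochondrial genes against 1.85% to 2.81% in the other 11. The comparisons between groups were therefore fitted with and without library 411, and also without library 410 or 409 where that is stated.

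The same libraries stood at the top for nearly all 32 genes. Library 411 had the highest level of 27 genes and was among the 2 highest for all 32, and library 410 had the highest level of the other 5 and was second for 26. The 32 genes summed to 3952, 2796, 2473 and 2203 CPM in the Wt-DMSO libraries 413, 425, 426 and 431. The sums were 3463, 7939.7, 1711 and 3975 CPM in the Het-DMSO libraries 409, 411, 420 and 429, and 6406, 2240.2, 1718 and 2506 CPM in the Het-Hit2 libraries 410, 421, 422 and 430. Each heterozygous group thus had 1 library far above the rest. The other 3 Het-DMSO libraries ran from just above the Wt-DMSO range to below it, and the other 3 Het-Hit2 libraries lay below the Wt-DMSO median of 2635 CPM. Libraries 420 and 422, 1 from each treatment, were among the 2 lowest for 20 genes each.

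A lineage score, in which each gene's log2 CPM has its median across libraries subtracted and the 32 results are averaged, put these libraries on 1 scale. It was 0.05 ± 0.42 in Wt-DMSO, 0.48 ± 0.86 in Het-DMSO and 0.08 ± 0.79 in Het-Hit2 (SD, n = 4 each). It was 0.10 ± 0.53 in Het-DMSO without library 411 and −0.31 ± 0.19 in Het-Hit2 without library 410 (SD, n = 3 each), so that the sign of the Het-Hit2 mean rests on library 410. The highest scores were 1.59 in library 411 and 1.24 in library 410, followed by 0.61 in the Wt-DMSO library 413. The lowest were −0.53 in library 422 and −0.50 in library 420. The groups overlapped over most of their range.

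**Figure D1:**
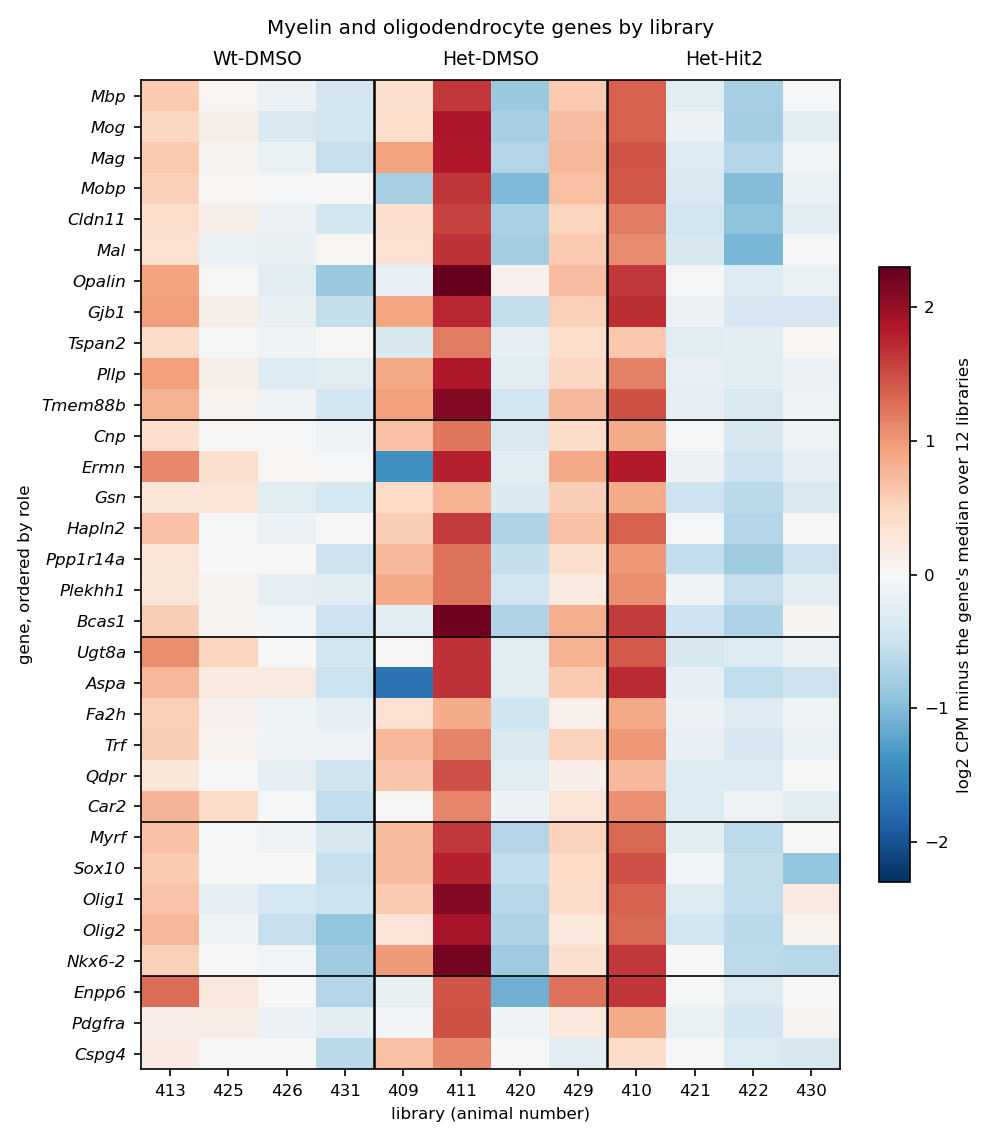
Heat map of the 32 genes (rows, ordered by role) in the 12 libraries (columns, ordered by group). Color gives log2 CPM relative to that gene's median across libraries. The columns of 411 and 410 are red throughout, those of 420 and 422 are mostly blue, and column 409 alone holds strong colors of both signs, with Ermn and Aspa at the blue end.

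Genes of the compact sheath and its membrane proteins were the largest class, with 11 members. In the following, values of a group are listed in the order of libraries 413, 425, 426 and 431 (Wt-DMSO), 409, 411, 420 and 429 (Het-DMSO), and 410, 421, 422 and 430 (Het-Hit2). Mbp, the basic protein that holds the cytoplasmic faces of myelin together, was at 1591, 1084, 952 and 786 CPM in Wt-DMSO, 1352, 3241, 583 and 1599.6 CPM in Het-DMSO, and 2685, 869.8, 620.2 and 1013 CPM in Het-Hit2. The highest and lowest Mbp values were thus both in Het-DMSO. In log2 units the fold change was 0.62 ± 0.52 (SE) for Het-DMSO over Wt-DMSO (edgeR adjusted p = 0.657) and −0.39 ± 0.52 for Het-Hit2 against Het-DMSO (edgeR adjusted p = 0.898). Without library 411 the same differences were 0.11 ± 0.48 and 0.10 ± 0.48.

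Mag was at 139, 96.0, 82.7 and 63.7 CPM in Wt-DMSO, 175, 330.1, 57.7 and 155 CPM in Het-DMSO, and 249, 74.3, 57.8 and 88.1 CPM in Het-Hit2. Mog was at 29.2, 22.9, 16.3 and 15.5 CPM in Wt-DMSO, 27.6, 75.9, 12.4 and 34.3 CPM in Het-DMSO, and 53.9, 19.2, 12.2 and 17.8 CPM in Het-Hit2. Both genes follow the order seen for Mbp, with libraries 411 and 410 on top and 420 and 422 at the bottom. Mag differed by a log2 fold change of 0.91 ± 0.53 between Het-DMSO and Wt-DMSO (edgeR adjusted p = 0.616) and by 0.46 ± 0.50 without library 411 (edgeR adjusted p = 0.712). Mobp was at 475.6, 335, 317 and 332 CPM in Wt-DMSO, 191, 1011, 159.6 and 523 CPM in Het-DMSO, and 868, 254, 162 and 293 CPM in Het-Hit2. Library 409 was low for Mobp although it was the third highest for Mag, and the ratio of Mobp to Mag CPM was 1.09 in 409 against 2.76 to 5.21 in the other 11.

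Gjb1, the gap junction protein connexin 32, was at 12.8, 7.19, 5.81 and 4.48 CPM in Wt-DMSO, 12.3, 21.9, 4.48 and 9.64 CPM in Het-DMSO, and 21.4, 5.98, 5.01 and 4.97 CPM in Het-Hit2. Tmem88b was at 56.4, 34.5, 30.4 and 23.9 CPM in Wt-DMSO, 62.6, 139.7, 23.9 and 54.5 CPM in Het-DMSO, and 89.8, 28.1, 25.5 and 29.8 CPM in Het-Hit2. For both, libraries 411 and 410 were the only values above 20 and 80 CPM, respectively. Pllp, a membrane proteolipid of myelin, was at 22.8, 13.0, 9.60 and 9.76 CPM in Wt-DMSO, 21.998, 42.9, 10.1 and 16.6 CPM in Het-DMSO, and 26.6, 10.4, 9.77 and 10.9 CPM in Het-Hit2. Opalin was among the genes of lowest level, at 7.42, 3.93, 3.22 and 2.10 CPM in Wt-DMSO, 3.40, 19.3, 4.17 and 6.34 CPM in Het-DMSO, and 12.1, 3.81, 3.10 and 3.47 CPM in Het-Hit2. Opalin in library 411 was 5.07 times the median of the other libraries, more than any other of the 32 genes. Cldn11, the tight junction protein of the sheath, Mal, a myelin proteolipid, and Tspan2, a tetraspanin, ranged from 21.9 to 122, 29.9 to 196 and 38.6 to 115 CPM over the 12 libraries.

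Cytoplasmic, cytoskeletal and matrix genes made up 7 members. Cnp, named above, was at 229, 179, 171 and 165 CPM in Wt-DMSO, 282, 410.3, 137 and 235 CPM in Het-DMSO, and 317, 169, 136 and 161 CPM in Het-Hit2, a highest value 3.02 times the lowest (2.33 times without library 411). Gsn, the actin-severing protein gelsolin, was at 39.4, 39.8, 26.8 and 24.7 CPM in Wt-DMSO, 44.5, 56.6, 25.8 and 48.2 CPM in Het-DMSO, and 58.8, 23.4, 21.0 and 25.6 CPM in Het-Hit2. For Gsn, 3 of the 4 Het-DMSO libraries were above all Wt-DMSO libraries, and 3 of the 4 Het-Hit2 libraries were below all Het-DMSO libraries. Ermn, a cytoskeletal protein of late myelination, ranged from 7.91 CPM in library 409 to 74.6 CPM in library 410. Bcas1 ranged from 41.2 to 314 CPM, Plekhh1 from 42.2 to 146, Hapln2, a link protein of the matrix at nodes of Ranvier, from 12.8 to 63.1, and Ppp1r14a from 6.39 to 27.0.

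Genes of lipid synthesis, metabolism and transport made up 6 members. Ugt8a, which makes the myelin lipid galactosylceramide, was at 40.2, 27.3, 19.2 and 14.3 CPM in Wt-DMSO, 19.1, 60.4, 15.9 and 33.3 CPM in Het-DMSO, and 51.1, 14.9, 15.3 and 17.5 CPM in Het-Hit2. Trf, the iron carrier transferrin, was at 380, 273, 241 and 240 CPM in Wt-DMSO, 436, 563, 203 and 371 CPM in Het-DMSO, and 511, 225, 196 and 232 CPM in Het-Hit2. Car2, carbonic anhydrase 2, was at 86.8, 69.0, 49.5 and 34.3 CPM in Wt-DMSO, 51.7, 110, 46.3 and 62.5 CPM in Het-DMSO, and 106, 40.7, 47.8 and 42.2 CPM in Het-Hit2. For Car2 the Wt-DMSO group held the lowest of all 12 values and the third highest. Qdpr, which regenerates the cofactor tetrahydrobiopterin, was at 84.5, 70.0, 60.3 and 50.2 CPM in Wt-DMSO, 108, 193, 56.9 and 77.3 CPM in Het-DMSO, and 116, 55.8, 56.1 and 68.7 CPM in Het-Hit2. Of the 32 genes, Qdpr had the smallest unadjusted p between Het-DMSO and Wt-DMSO, where its log2 fold change was 0.72 ± 0.36 (edgeR adjusted p = 0.616), and 0.31 ± 0.29 without library 411 (edgeR adjusted p = 0.683). Aspa, which splits N-acetylaspartate, was at 13.6, 9.14, 9.15 and 5.60 CPM in Wt-DMSO, 2.39, 25.2, 6.53 and 12.1 CPM in Het-DMSO, and 26.2, 6.92, 5.36 and 5.72 CPM in Het-Hit2. Fa2h, which hydroxylates the fatty acids of myelin lipids, ranged from 16.1 to 41.1 CPM, a ratio of 2.56 with or without library 411.

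The 5 transcription factors had the largest median difference of the classes between Het-DMSO and Wt-DMSO with all 12 libraries, a log2 value of 0.81 that was 0.26 without library 411. Myrf was at 76.5, 46.8, 45.1 and 36.9 CPM in Wt-DMSO, 79.7, 149, 30.1 and 69.0 CPM in Het-DMSO, and 120, 39.8, 31.4 and 49.0 CPM in Het-Hit2. Sox10 was at 31.1, 20.6, 20.6 and 14.2 CPM in Wt-DMSO, 34.1, 70.5, 13.9 and 28.5 CPM in Het-DMSO, and 57.6, 19.7, 14.1 and 11.03 CPM in Het-Hit2. In both cases library 410 exceeded the rest of its group by more than 2-fold, and for Sox10 the Het-Hit2 group also held the lowest value. Olig1 was at 51.5, 28.3, 24.7 and 23.3 CPM in Wt-DMSO, 49.5, 141, 20.7 and 44.5 CPM in Het-DMSO, and 84.1, 26.1, 22.05 and 37.9 CPM in Het-Hit2. Olig2 was at 15.8, 8.76, 6.38 and 4.92 CPM in Wt-DMSO, 11.4, 34.7, 5.66 and 10.9 CPM in Het-DMSO, and 23.1, 6.82, 5.96 and 9.76 CPM in Het-Hit2. Olig1 had a log2 fold change of 1.00 ± 0.56 between Het-DMSO and Wt-DMSO (edgeR adjusted p = 0.616), which was 0.29 ± 0.46 without library 411 (edgeR adjusted p = 0.795). Nkx6-2, a homeodomain factor of maturing oligodendrocytes, was at 7.42, 5.09, 4.81 and 2.82 CPM in Wt-DMSO, 10.03, 23.5, 2.80 and 6.51 CPM in Het-DMSO, and 15.6, 4.99, 3.29 and 3.19 CPM in Het-Hit2. It had the largest estimate of the list between these groups, a log2 fold change of 1.09 ± 0.64 (edgeR adjusted p = 0.616). It was 0.40 ± 0.58 without library 411 (edgeR adjusted p = 0.777) and −0.11 without libraries 409 and 411.

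Markers of progenitors and of newly formed oligodendrocytes (3 members) were the last class. Pdgfra was at 25.7, 25.8, 21.0 and 19.2 CPM in Wt-DMSO, 22.05, 63.3, 21.5 and 27.1 CPM in Het-DMSO, and 41.8, 20.8, 17.2 and 24.1 CPM in Het-Hit2. Outside libraries 411 and 410, Pdgfra lay between 17.2 and 27.1 CPM in all groups. Cspg4 was at 27.0, 23.96, 23.5 and 15.3 CPM in Wt-DMSO, 37.8, 51.3, 23.3 and 19.8 CPM in Het-DMSO, and 32.3, 23.9, 19.0 and 18.3 CPM in Het-Hit2. Here library 409 exceeded library 410, the only gene of the list for which it ranked second. Enpp6 was at 9.06, 4.41, 3.66 and 2.28 CPM in Wt-DMSO, 3.28, 10.2, 1.68 and 8.80 CPM in Het-DMSO, and 11.6, 3.56, 2.94 and 3.71 CPM in Het-Hit2. The lowest Enpp6 value rests on 27 reads, the fewest behind any value of the 32 genes.

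**Figure D2:**
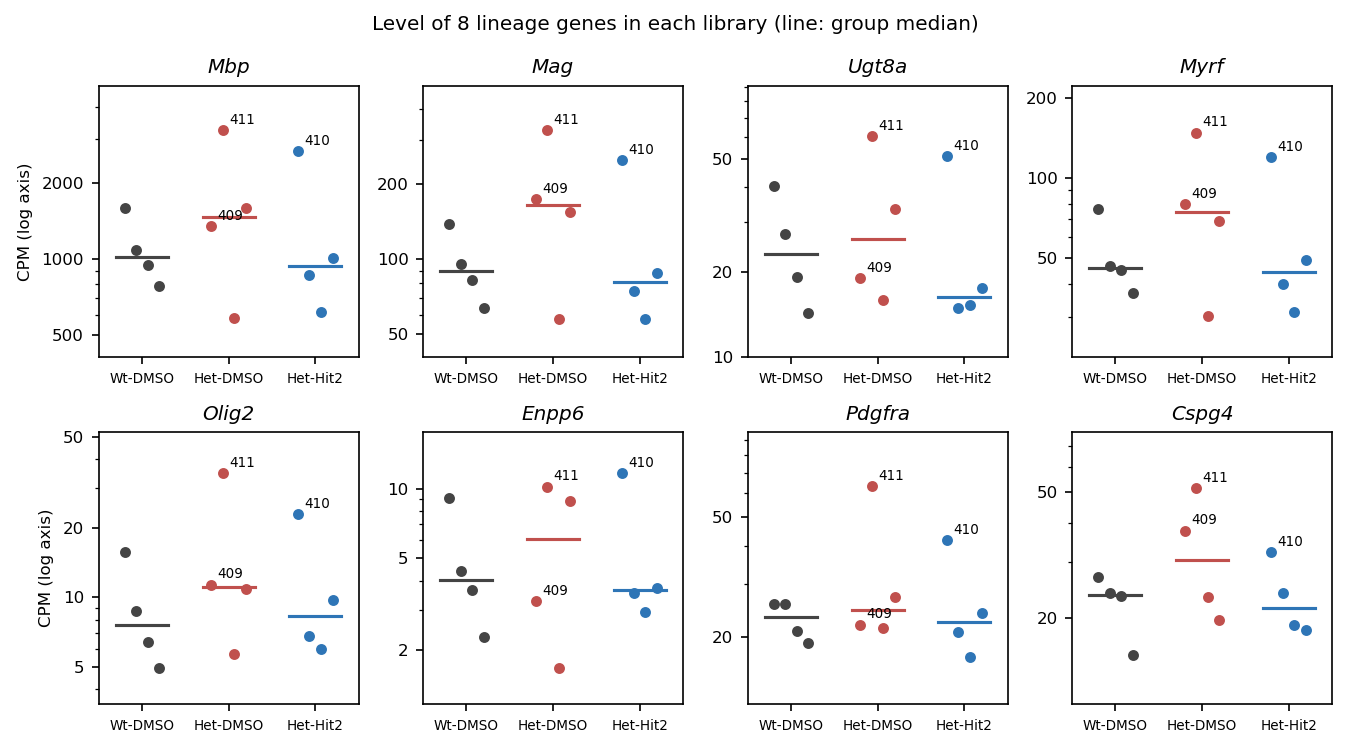
CPM of 8 genes of the list in each library (log axis), with 1 point per library, the group median as a line, and libraries 409, 410 and 411 marked. In all 8 panels 411 and 410 lie at the top of their groups while the remaining points of the 3 groups overlap.

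Ratios between stages differed less than the levels. The ratio of Pdgfra to Mog CPM ran from 0.776 in library 410 to 1.74 in library 420, and was 0.835 in library 411. That of Enpp6 to Mog ran from 0.119 in library 409 to 0.311 in library 413, and that of Olig2 to Mbp from 0.00627 in library 431 to 0.0107 in library 411. The 3 ratios overlapped between the groups. Per kilobase of merged exons, which allows genes to be compared, the Wt-DMSO mean was highest for Mbp at 130.2 ± 41.0 CPM per kb, followed by Trf at 85.4 ± 19.9, Mobp at 53.3 ± 10.8 and Cnp at 51.1 ± 8.05 (SD, n = 4). It was lowest for Enpp6, at 0.757 ± 0.459 CPM per kb, below Opalin at 1.42 ± 0.779 (SD, n = 4). The order of Trf and Mobp depends on the length used: per kilobase of the longest coding transcript, Mobp was at 111 ± 22.6 and Trf at 110 ± 25.7 CPM per kb (SD, n = 4), a difference within their spread. Mbp stayed highest, at 229.95 ± 72.4 CPM per kb (SD, n = 4), and Enpp6 lowest.

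Het-DMSO was compared with Wt-DMSO to ask what the expanded Atxn1 allele does to these genes. All 32 estimates were above 0 with all 12 libraries, with log2 fold changes from 0.17 (Car2) to 1.09 (Nkx6-2) and a median of 0.62, where the median over all 19378 genes was 0.05. By class the median was 0.68 for the sheath and membrane genes, 0.58 for the cytoplasmic and matrix genes, 0.32 for the metabolic genes, 0.81 for the transcription factors and 0.55 for the progenitor and premyelinating markers. Without library 411 these medians were, in the same order, 0.16, 0.25, −0.09 (2 above and 4 below 0), 0.26 and 0.05, so that the metabolic genes changed sign. None of the 32 passed the test: 0 were at an edgeR adjusted p under 0.05 (0.00516% of all genes were, a single gene, Myo15) and 0 at an unadjusted p under 0.05 (7.11% of all genes). No member had groups that did not overlap, against 4.39% of all genes. DESeq2 and limma voom called no member either after adjustment. With voom, which gave libraries 409 and 411 little weight, the median was 0.05 (24 above and 8 below 0), and with 1 surrogate variable it was 0.29 (25 above and 7 below 0). The labels do not give the animals' sex. By Xist and Y-linked transcripts 2 libraries were from females, both in Wt-DMSO, so that sex is partly tied to genotype. With sex in the fit the median was 0.52, with all 32 estimates above 0.

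Without library 411, 24 estimates were above 0 and 8 below, and the median over the 32 genes was 0.20 (all genes: 0.01). The 8 below 0 were Mobp, Ermn, Aspa, Ugt8a, Car2, Tspan2, Enpp6 and Fa2h, of which Aspa and Ermn were lowest at −0.43 and −0.42. No member was at an adjusted p under 0.05 (0.0456% of all genes) or at an unadjusted p under 0.05 (7.33% of all genes), and 0 had groups that did not overlap (7.75% of all genes). Leaving out library 409 as well gave 13 above and 19 below 0, with a median of −0.02. All 32 intervals at 95% held 0 in the comparison with all libraries, and 30 of them also reached a 2-fold difference, so that for these genes the data do not exclude a change of that size.

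Het-Hit2 was compared with Het-DMSO for the effect of the compound. All 32 estimates were below 0 with all 12 libraries, from −0.70 (Tmem88b) to −0.07 (Aspa), with a median of −0.45 (all genes: −0.04). No member was at an adjusted p under 0.05 (0% of all genes) or at an unadjusted p under 0.05 (1.55% of all genes), and none had groups that did not overlap (1.03% of all genes). The smallest p belonged to Cspg4, with a log2 fold change of −0.50 ± 0.30 (edgeR adjusted p = 0.898). Het-DMSO is the reference here and the test group in the comparison above, so the opposite signs of the 2 comparisons share library 411.

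This comparison depended on which libraries were kept, the 2 high ones among them. Of all alternatives, the fit without libraries 409 and 411 gave the highest median, above 0. Without library 411 the estimates were 18 above and 14 below 0 with a median of 0.02 (all genes: 0.00), and no member was at an adjusted p (0% of all genes) or an unadjusted p (5.96% of all genes) under 0.05, or had groups that did not overlap (3.95% of all genes). Aspa had the smallest p, with 0.64 ± 0.63 (edgeR adjusted p = 0.688), and Gsn followed with −0.34 ± 0.35 (edgeR adjusted p = 0.699). Without library 410 and with 411 kept, the median was −1.02 and 20 of 32 members were at an unadjusted p under 0.05 (3.76% of all genes), all lower in Het-Hit2, while 0 were at an adjusted p under 0.05 (0% of all genes). The 20 include Gsn (−0.92 ± 0.26, edgeR adjusted p = 0.805), Ppp1r14a, Trf, Sox10, Tmem88b, Mag and Cnp. Without both libraries, all 32 estimates were again below 0, with a median of −0.53 (all genes: −0.03), and 4 members were at an unadjusted p under 0.05 (3.72% of all genes) and 0 at an adjusted one (0% of all genes). These 4 were Gsn (−0.79 ± 0.26), Ppp1r14a (−0.94 ± 0.31), Trf (−0.66 ± 0.27) and Sox10 (−0.81 ± 0.36), each at an edgeR adjusted p of 0.725. Of the Het-DMSO libraries left in that fit, 409 was highest for Ppp1r14a (19.0 CPM), Trf (436 CPM) and Sox10 (34.1 CPM). For Gsn, library 429 was highest (48.2 CPM). Of the 32, Gsn alone had groups that did not overlap, both without 410 (4.31% of all genes) and without 410 and 411 (7.86% of all genes). The gap was narrow: scaled with all 12 libraries, Gsn was at 25.6 CPM in library 430 (Het-Hit2) and 25.8 CPM in library 420 (Het-DMSO). Leaving out both libraries was chosen after seeing the data.

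**Figure D3:**
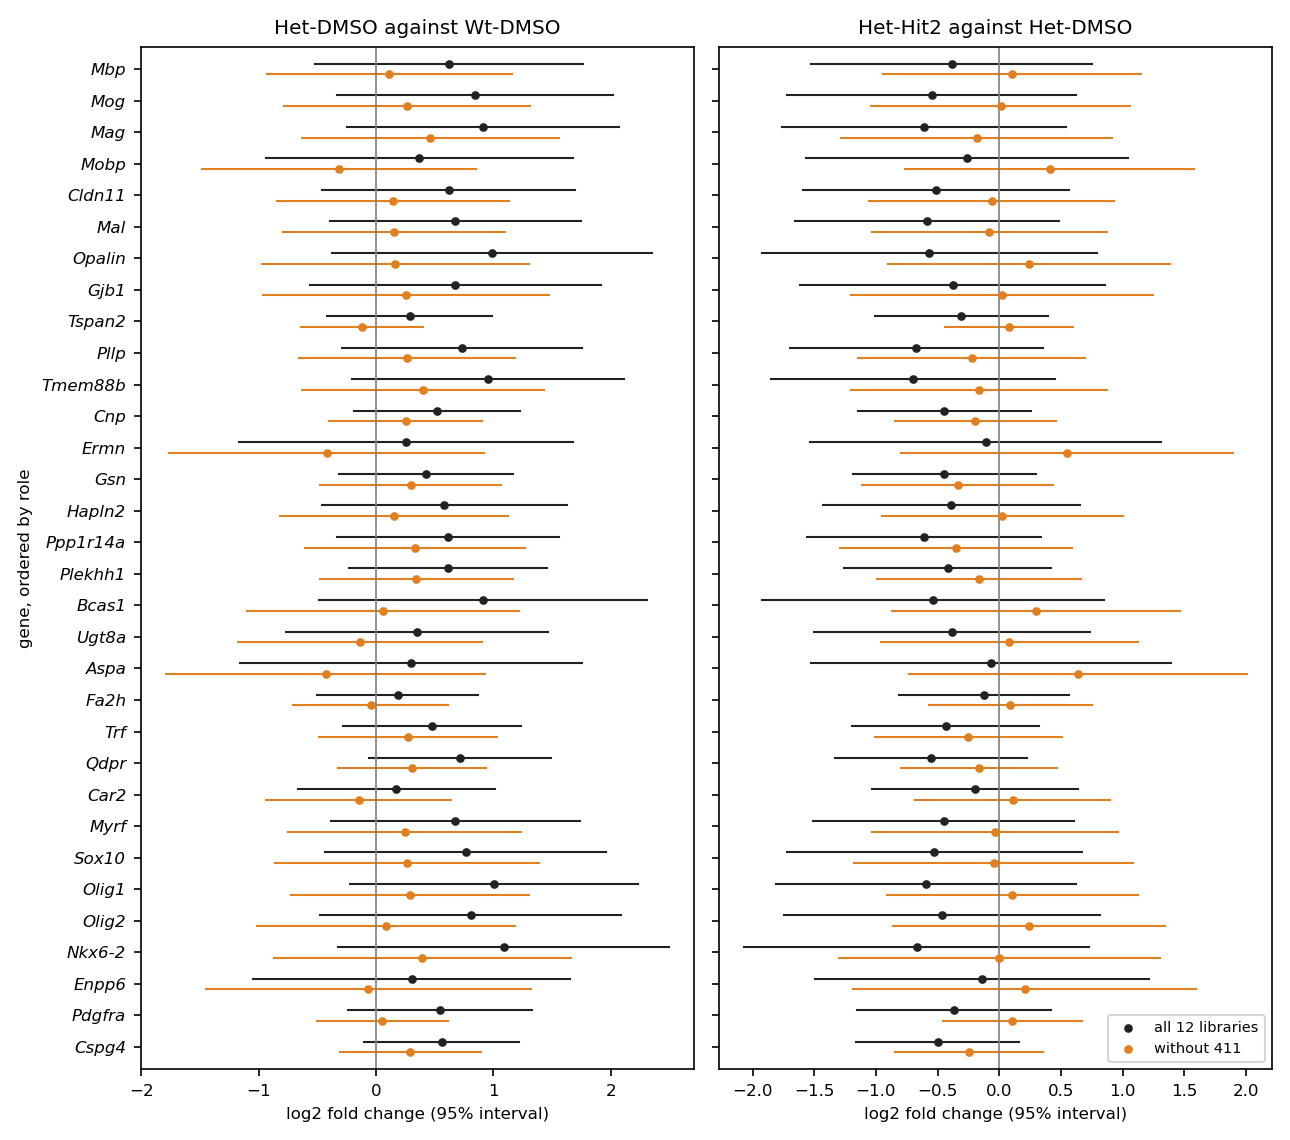
Log2 fold change of each gene with its 95% interval from the edgeR fit, with all 12 libraries (black) and without library 411 (orange), for Het-DMSO against Wt-DMSO (left) and Het-Hit2 against Het-DMSO (right). All black points lie on 1 side of 0 in each panel, the orange points fall on both sides, and every interval crosses 0.

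Het-Hit2 against Wt-DMSO gave 28 estimates above and 4 below 0 with a median of 0.17 (all genes: 0.02). No member was at an adjusted p under 0.05 (0.00516% of all genes, again Myo15), at an unadjusted p under 0.05 (1.71% of all genes) or had groups that did not overlap (6.32% of all genes). Olig1 had the smallest p, with a log2 fold change of 0.41 ± 0.56 (edgeR adjusted p = 1), ahead of Opalin (0.42 ± 0.62) and Nkx6-2 (0.42 ± 0.64). Library 411 belongs to neither group, and without it the median was 0.15 with 0 members at an adjusted p (0.0709% of all genes) or an unadjusted p (3.81% of all genes) under 0.05, and 0 whose groups did not overlap (6.09% of all genes). Without library 410 all 32 estimates were below 0, with a median of −0.40, and 0 members were at an adjusted p (0% of all genes) or an unadjusted p under 0.05 (1.42% of all genes). Without both libraries the median was also −0.40, again with 0 members at an adjusted p (0.0557% of all genes) or an unadjusted p (3.18% of all genes) under 0.05. In both of these fits the groups did not overlap for 4 members, Mobp, Ermn, Trf and Ppp1r14a, all lower in Het-Hit2 (4 of 32, where 9.92% of all genes did not overlap without 410 and 9.95% without both). With sex in the fit and all 12 libraries, the median was 0.09 (20 above and 12 below 0). The direction of this comparison turned when library 410 was left out. It also turned with all 12 libraries kept, under voom with quality weights and with 1 surrogate variable.

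Marker genes of other cells moved with the level of the oligodendrocyte genes in the libraries 411 and 410. In library 411, genes of neurons found outside the cerebellum were present: the dopamine transporter Slc6a3 was at 36.2 CPM, while it was at most 1.10 CPM in the other 11 libraries. In library 410, the serotonin neuron genes Slc6a4 and Tph2 were at 14.9 and 16.04 CPM. They were at 9.79 and 10.9 CPM in library 411 and at most 1.32 and 2.07 CPM in the other 10. The 17 genes of such neurons summed to 138 CPM in library 411, 64.0 CPM in library 410 and 5.15 to 43.4 CPM in the other 10, with 4 and 1 of the 17 at 0 in 411 and 410. By group these sums were 16.7 to 43.4 CPM in Wt-DMSO, 6.70 to 138 CPM in Het-DMSO and 5.15 to 64.0 CPM in Het-Hit2. The upper value, 43.4 CPM, belongs to library 425, whose lineage score was 0.09 and which alone held Hox genes at 1.41 CPM or more. Th, 1 of the 17, made up 11.4 of 17.6 CPM in the Wt-DMSO library 426 and 13.1 of 16.7 CPM in 431. Not all of the 17 were high in library 411: Tbr1 was at its lowest there, at 0.454 CPM.

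For 2 cell types every Wt-DMSO sum was above every heterozygous one. Purkinje cell genes summed to 7247 to 7566 CPM in Wt-DMSO, 694 to 6380 CPM in Het-DMSO and 3329 to 6395 CPM in Het-Hit2. Astrocyte and Bergmann glia genes summed to 3093 to 3318 CPM in Wt-DMSO, 2605 to 3087 CPM in Het-DMSO and 2758 to 2838.5 CPM in Het-Hit2, so that libraries 426 and 411 nearly met. Gene by gene, 6 of the 12 Purkinje cell genes and 2 of the 12 astrocyte and Bergmann glia genes (Slc1a3 and Gdf10) were higher in every Wt-DMSO library than in all 8 heterozygous ones, as against 0 of the 32 oligodendrocyte genes. Of all genes, 1.8% had no overlap between wild-type and heterozygous libraries in either direction. Library 410 also had the lowest granule cell sum after 411, at 4520 CPM. Microglia genes (12 of 12 detected) summed to 251 CPM in library 411 and 179 CPM in library 410, against 90.4 to 128 CPM in the other 10. By group the microglia sum was 90.4 to 128 CPM in Wt-DMSO, 101 to 251 CPM in Het-DMSO and 91.6 to 179 CPM in Het-Hit2. Endothelial genes were highest in the same 2 libraries, at 331 and 321 CPM against 215 to 265 CPM in the other 10. Choroid plexus genes were uneven, at 2052 CPM in library 429, 1176 in 425, 1020.3 in 410, 729 in 413, 205 in 411 and 17.1 to 64.0 CPM in the other 7. Astrocyte and Bergmann glia genes summed to 3087 CPM in library 411 and 2779 CPM in library 410, within the 2605 to 3318 CPM of the other libraries, but single genes of that list moved apart. In library 411 the Bergmann glia gene Gdf10 was at 1.62 CPM (41.6 to 176 elsewhere), while the glutamate transporter Slc1a2 was at 1835 CPM, its highest level. Genes of Schwann cells, which make peripheral myelin, summed to 123 CPM in library 411, 98.7 CPM in library 410 and 61.0 to 78.7 CPM in the other 10. Of these genes, Pmp2 was at 0 in all 12 libraries. The part of tissue composition in the differences between groups was not tested.

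**Figure D4:**
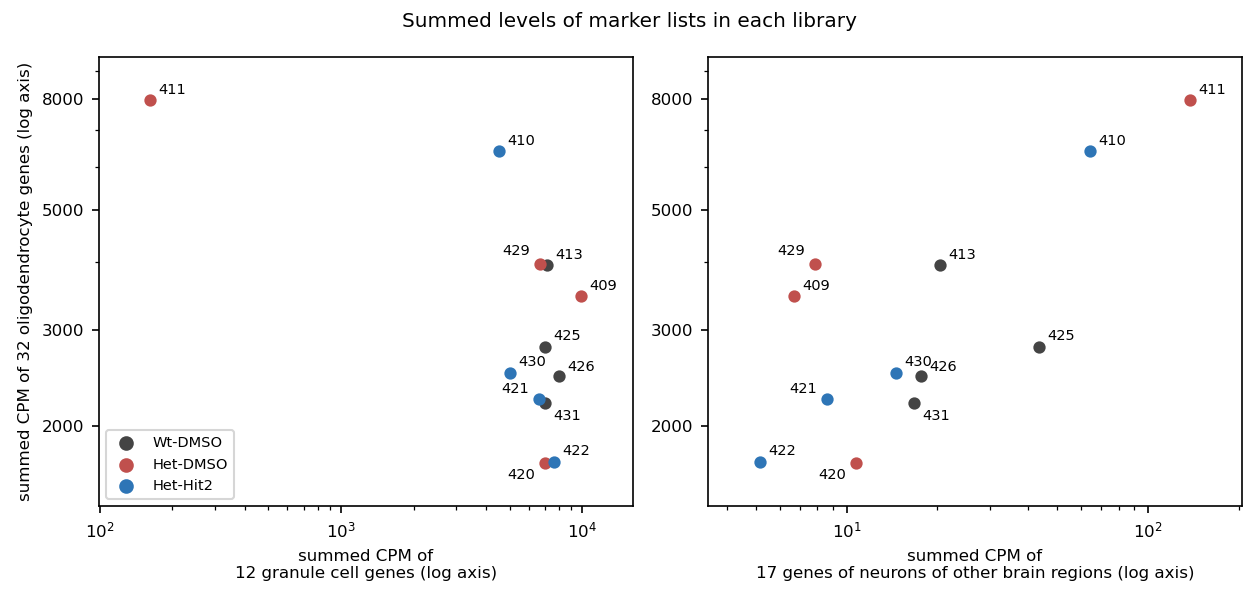
Summed CPM of the 32 oligodendrocyte genes (vertical, log axis) against summed CPM of 12 granule cell genes (left) and of 17 genes of neurons of other brain regions (right), with 1 point per library (log axes). Library 411 lies far left in the first panel, and 411 and 410 lie at the upper right of the second.

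A further 35 genes linked to oligodendrocytes and myelin are not on the list. They are not specific to the lineage: Kif5a, a motor protein of axonal transport (704 to 2327 CPM), and Cntnap1, the axonal protein of the paranode (338 to 765 CPM), are neuronal, and neurons also express Cntn2, Nfasc and Lingo1. The counts and medians of the 35 therefore mix the lineage with neurons. All 35 were tested, 33 estimates were above and 2 below 0 for Het-DMSO against Wt-DMSO (median 0.46), and 3 were above and 32 below 0 for Het-Hit2 against Het-DMSO (median −0.29). For Het-Hit2 against Wt-DMSO, 26 were above and 9 below 0 (median 0.14). None was at an edgeR adjusted p under 0.05 in any of the 3, and Zfp488, a transcriptional repressor of the lineage, was the only 1 at an unadjusted p under 0.05 (log2 fold change 1.12 ± 0.50 between Het-DMSO and Wt-DMSO, edgeR adjusted p = 0.616). That is 1 of 35, where 7.11% of all genes were at such a p. Library 411 was highest for 27 of the 35, library 410 for 4, library 409 for 3 and library 426 for 1. Among the exceptions, named after their values were seen, St18 was at 21.9 CPM in library 411 and at 81.3 to 217 CPM elsewhere. Cntn2 was lowest in library 411 (426 CPM) and highest in library 409 (1367 CPM).

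Without library 411 the medians of these 35 genes were 0.14 for Het-DMSO over Wt-DMSO, 0.00 for Het-Hit2 over Het-DMSO and 0.12 for Het-Hit2 against Wt-DMSO. Of the 35, 2 were then at an unadjusted p under 0.05 for Het-Hit2 against Het-DMSO, a share near the 5.96% of all genes, and none in the other comparisons. They were Cntn2, an adhesion molecule near the node (−0.54 ± 0.23, edgeR adjusted p = 0.63), and Tcf7l2, a Wnt pathway factor of differentiating oligodendrocytes (1.14 ± 0.42, edgeR adjusted p = 0.63). With all 12 libraries the sign for Tcf7l2 was the opposite (−0.24 ± 0.68, edgeR adjusted p = 0.938). Tcf7l2 was at 76.2 CPM in library 411, and within Het-Hit2 at 43.9 CPM in library 430, 23.1 in 410, 11.7 in 421 and 11.4 in 422. Cntn2 was at 1367 CPM in library 409, against 707 in 420, 698 in 429 and 560 to 731 CPM in Het-Hit2.

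Library 409 differed from the others in the balance between genes of the list. Its Aspa and Ermn levels, 2.39 and 7.91 CPM, were the lowest of all 12 libraries, while it was the third highest for Mag, at 175 CPM. The ratio of Aspa to Mag CPM was 0.0137 in library 409 and 0.0650 to 0.113 in the other 11, and that of Ermn to Mag 0.0453 against 0.205 to 0.325. Once each library's median deviation was removed, the deviation of the 32 genes in library 409 correlated with the GC content of their transcripts, with Pearson's r of 0.70 and Spearman's rho of 0.63 across the 32 genes. The same Pearson's r lay between −0.59 and 0.01 in the other 11 libraries. Genes of 1 library share its preparation and are not independent, and these correlations are a description.

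With the library's median deviation removed in this way, the 5 genes with the lowest GC content were all below 0 in library 409. Before its removal Ugt8a deviated by −0.004 and Enpp6 by −0.17, so their levels there lay near their medians over the 12 libraries. The values that follow are those after removal. Aspa (41.4% GC) deviated by −2.13 on the log2 scale, Ermn (38.0%) by −1.83, Tspan2 (42.2%) by −0.80, Enpp6 (42.3%) by −0.59 and Ugt8a (38.0%) by −0.43. Other genes departed from that order: Mobp (53.3%) was at −1.19, Bcas1 (50.9%) at −0.69 and Opalin (47.6%) at −0.61, while Tmem88b (48.1%) was at 0.52. Nkx6-2, the richest in GC at 65.7%, was highest at 0.56. Without library 409, the estimate for Aspa in Het-DMSO against Wt-DMSO was 0.63, compared with 0.30 with all 12 libraries, and −0.43 without library 411. Aspa did not pass the test in any of these fits. The part of GC content in the differences between groups was not tested.

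**Figure D5:**
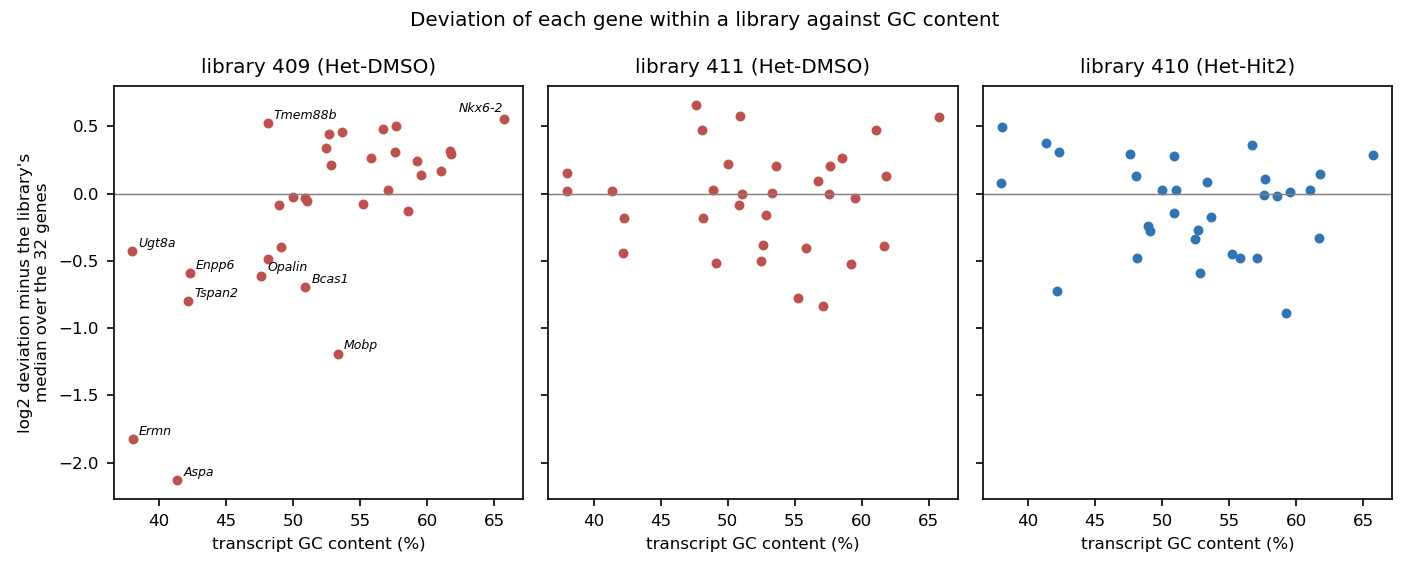
Deviation of each of the 32 genes within libraries 409, 411 and 410 (log2, minus the library's median over the 32 genes) against the GC content of its transcript in percent, with 1 point per gene. The points of 409 climb from Aspa and Ermn at the lower left to Nkx6-2 at the upper right (r of 0.70), while those of 411 and 410 show no such slope.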

How the data were processed

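Read counts per gene were deposited by the authors as 1 table per library, in the layout STAR gives, per the file headers. STAR 2.7.10a, FastQC 0.11.9 and the build GRCm39 (mm39) are named in the submitters' processing notes; annotation release and trimming are not given in the sources used here. Libraries were directional and depleted of ribosomal RNA, per the labels' protocols, and the counts of the reverse strand were used. Of 55401 Ensembl identifiers, 55141 matched a symbol and 260 did not. Reads that were unassigned (44.7% to 54.6%), multimapping, ambiguous or unmapped stayed out of library sizes. Exon lengths and GC content came from an annotation of GRCm38, and promoters from RefSeq (GRCm38.p6).

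Groups were taken from the labels; animal numbers do not recur, so no libraries were paired. With 1 library per mouse, p-values measure the spread between mice. One edgeR 4.0.16 fit in R 4.3.3 (quasi-likelihood, TMM, filterByExpr, 12 libraries, no covariate) gave two-sided tests, with Benjamini-Hochberg adjustment across all 19378 genes and a threshold of 0.05. Log2 levels used a prior count of 2. The pipeline was tested on simulated data. Alternatives were DESeq2 1.42.0, voom with quality weights (limma 3.58.1), sva 3.50.0, sex (read from Xist and Y-linked transcripts) as a covariate, other scalings, filters and strands, and leaving out libraries. Leaving out 410 with 411, and with 409 and 411, was chosen after seeing the data.

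Values in every library are printed for 16 genes chosen by role and for the 3 of smallest p in each comparison, with and without library 411. Ppp1r14a and the other genes named at an unadjusted p were chosen after their values were seen. The members and lists were chosen with earlier results of these data known. Some genes of the marker lists are not reported here singly.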

Additional observations from a re-analysis of the deposited data

Results flagged for a closer look

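Within a group of 4, a library was flagged where its log2 CPM lay so far from the nearest other library that the gap exceeded Dixon's 95% critical share of the group's range. Of 99 such checks with all 12 libraries (32 genes and the lineage score in 3 groups), 11 were flagged, where chance gives about 1 in 20, or 4.95. Of these, 10 concern library 410 of the Het-Hit2 group. There Opalin was at 12.1 CPM, Ermn at 74.6 CPM, Ugt8a at 51.1 CPM, Aspa at 26.2 CPM and Gjb1 at 21.4 CPM. Also in library 410, Fa2h was at 41.1 CPM, Enpp6 at 11.6 CPM, Car2 at 106 CPM, Pllp at 26.6 CPM and Tmem88b at 89.8 CPM. The nearest other Het-Hit2 libraries were far lower, for example at 17.5 CPM for Ugt8a and 10.9 CPM for Pllp. The remaining flag was Mobp in the Wt-DMSO library 413, at 475.6 CPM against 335 CPM in the next library. The 32 genes share the tissue of 1 animal, so these 10 flags are not independent. No gene was flagged in Het-DMSO.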

How the results depend on the processing

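Under 27 alternatives, no member passed an adjusted p of 0.05 in any comparison. The median of the 32 genes ranged from −0.02 (without 409 and 411) to 0.87 (without 420) for Het-DMSO against Wt-DMSO. It ranged from −1.02 (without 410) to 0.12 (without 409 and 411) for Het-Hit2 against Het-DMSO, and from −0.40 (without 410 and 411) to 0.41 (without 413) for Het-Hit2 against Wt-DMSO. For Het-DMSO against Wt-DMSO, genes past the threshold numbered 1 with all libraries, 2 with no scaling factor, 43 with DESeq2, 98 with voom and quality weights, 0 with only the 2 groups, and 16 with 1 surrogate variable. They numbered 18 without 409 and 411, 13 without 410 and 411, 84 without 409, 410 and 411, and 0 to 9 when 1 library was left out. For Het-Hit2 against Wt-DMSO they numbered 1, and 24 with DESeq2, 221 with voom, 4 with no filter, 2 with unstranded counts, 54 with only the 2 groups, 0 with a sex covariate, and 9 with 1 surrogate variable. They numbered 90 without 409 and 411, 11 without 410 and 411, 109 without all 3, and 0 to 14 when 1 library was left out. For Het-Hit2 against Het-DMSO they numbered 0 in every setting.

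Members at an unadjusted p under 0.05 for Het-DMSO against Wt-DMSO numbered 0 with all libraries and 1 each with DESeq2 (of 1796 such genes in all), no filter (1862) and unstranded counts (1602). They numbered 0 to 8 when 1 library was left out, 8 without 420 (of 2865 such genes). For Het-Hit2 against Het-DMSO they numbered 0, then 1 each with unstranded counts (of 432) and 1 surrogate variable (763), 4 without 410 and 411 (734), and 2 without all 3 (1032). They numbered 0 to 20 when 1 library was left out, 20 without 410 (of 742). For Het-Hit2 against Wt-DMSO they numbered 3 without 409, 410 and 411 (of 1983) and 0 otherwise. The median for Het-Hit2 against Wt-DMSO turned to −0.19 with voom and −0.10 with 1 surrogate variable. Voom gave library 409 a weight of 0.0412, 411 a weight of 0.118 and 410 a weight of 0.621, against 1.26 to 3.47 for the others. The cause of these shifts was not tested. No paired analysis was possible because animal numbers do not recur between groups.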
